A study of Mus musculus with 2 samples.

Results

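The limbal stem cell class (LSC) consisted of the cells that the authors' deposited annotation calls LSC, with no asterisk. It held 859 of the 33885 annotated cells of mouse corneal epithelium, 592 of 16420 cells in the dry eye library and 267 of 17465 cells in the control library. Both libraries came from the same 7 male C57BL/6J mice, aged 10 weeks and killed on day 9. The extraorbital and intraorbital lacrimal glands on the right side had been cut out, and 6 of the 7 right eyes, after an injured eye was set aside, were pooled as the dry eye sample. The 7 left eyes, left alone, were pooled as the control sample, so dry eye and control differed in the side of the animal as well as in treatment, and the controls came from operated animals. Epithelial sheets were freed with the protease known as enzyme G, made into single cells with trypsin, and run as 1 library per group on a droplet platform that reads the 3′ ends of polyadenylated transcripts. No difference between the groups therefore has a replicate check, no p-value can be given, and every interval below covers counting error only.

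The corneal epithelium is renewed from its rim, the limbus, where slowly dividing stem cells give rise to transit amplifying cells that move toward the centre and upward, become basal, wing and squamous cells, and are shed. Differentiating corneal cells make Krt12, the keratin of the cornea, while limbal cells make Krt15 and Krt14, the keratins of stem and basal cells. In the mouse, Gpha2, a glycoprotein hormone subunit, marks the quiescent stem cells of the outer limbus. The lacrimal glands make most of the watery part of the tear film, and their removal leaves the ocular surface dry.

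The annotation had 13 classes. LSC cells carried a median of 5478.5 unique molecular identifiers (UMIs, each a captured transcript) in dry eye and 4567 in control, against 9086.5 in dry eye and 8248 in control over all cells. Their median number of genes was 1739.5 in dry eye and 1578 in control, and mitochondrial transcripts made up a median of 2.56% of their UMIs in dry eye and 2.96% in control. Summed over the class, these cells gave 4268817 UMIs in dry eye and 1503145 in control, and levels are given as CPM, the gene's UMIs per 1000000 UMIs of the class, on which 1 UMI was worth 0.234 CPM in dry eye and 0.665 CPM in control. Of the 74 barcodes found in both libraries, 1 belonged to an LSC cell.

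Of the 7 marker genes chosen for the class, 6 stood far above the other large classes in LSC cells, and Krt15 did not. The sources used here do not give how the classes were made, and since classes of cells are drawn from the transcripts of those cells, the levels by class are a description and no test. Gpha2 (chr19:6226380-6227768, mm10, plus strand) stood at 3475 CPM in dry eye LSC cells and 3067 CPM in control LSC cells. The highest of the 7 other classes with at least 100 cells in each library reached 143 CPM in dry eye (Conj, the conjunctival cells) and 73.8 CPM in control (TAC1, a class of transit amplifying cells). Among 4446 genes at 20 CPM or more in LSC cells of both libraries, 54 were at least 2-fold and 10 at least 10-fold above each of those 7 classes in both libraries. These 10 were Sbspon, Fmo1, Gpha2, Lcn2, Cp, Igfbp7, Cd63, Ccdc3, Car12 and Pltp, which takes in all the markers but Krt15.

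The 10 genes fall into secreted proteins, enzymes and a tetraspanin. Sbspon, which encodes a matrix protein with somatomedin B and thrombospondin domains, had 20.8 CPM in dry eye LSC cells and 23.3 in control LSC cells, with 0.386 CPM in dry eye and 0.0981 in control Conj cells, the next class. Igfbp7, an extracellular protein that binds insulin-like growth factors, had 104 CPM in dry eye LSC cells and 136 in control, and Cd63, a tetraspanin of late endosomes and exosomes, had 112 CPM in dry eye and 134 in control. Lcn2, the siderophore-binding lipocalin, Cp, the copper-carrying ferroxidase ceruloplasmin, and Pltp, which transfers phospholipids between lipoproteins, lay between 20.8 and 55.2 CPM. Fmo1, a flavin monooxygenase, and Car12, a membrane carbonic anhydrase, lay between 22.3 and 37.9 CPM. Apoe, the lipid-carrying apolipoprotein, came next in rank, with 2820 CPM in dry eye LSC cells and 3059 in control, at least 9.58-fold above the same 7 classes. The small Immune class, which is not among those 7, had more Cd63 than LSC cells, with 440.2 CPM in dry eye and 536 in control, and its Apoe level was 1200.4 CPM in dry eye and 3612 in control, below dry eye LSC cells and above control LSC cells. Krt15, with 5996 CPM in dry eye LSC cells and 7106 in control, was exceeded by Conj cells, with 15181 CPM in dry eye and 15922 in control, and ranked 3940 of the 4446 genes.

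**Figure D1:**
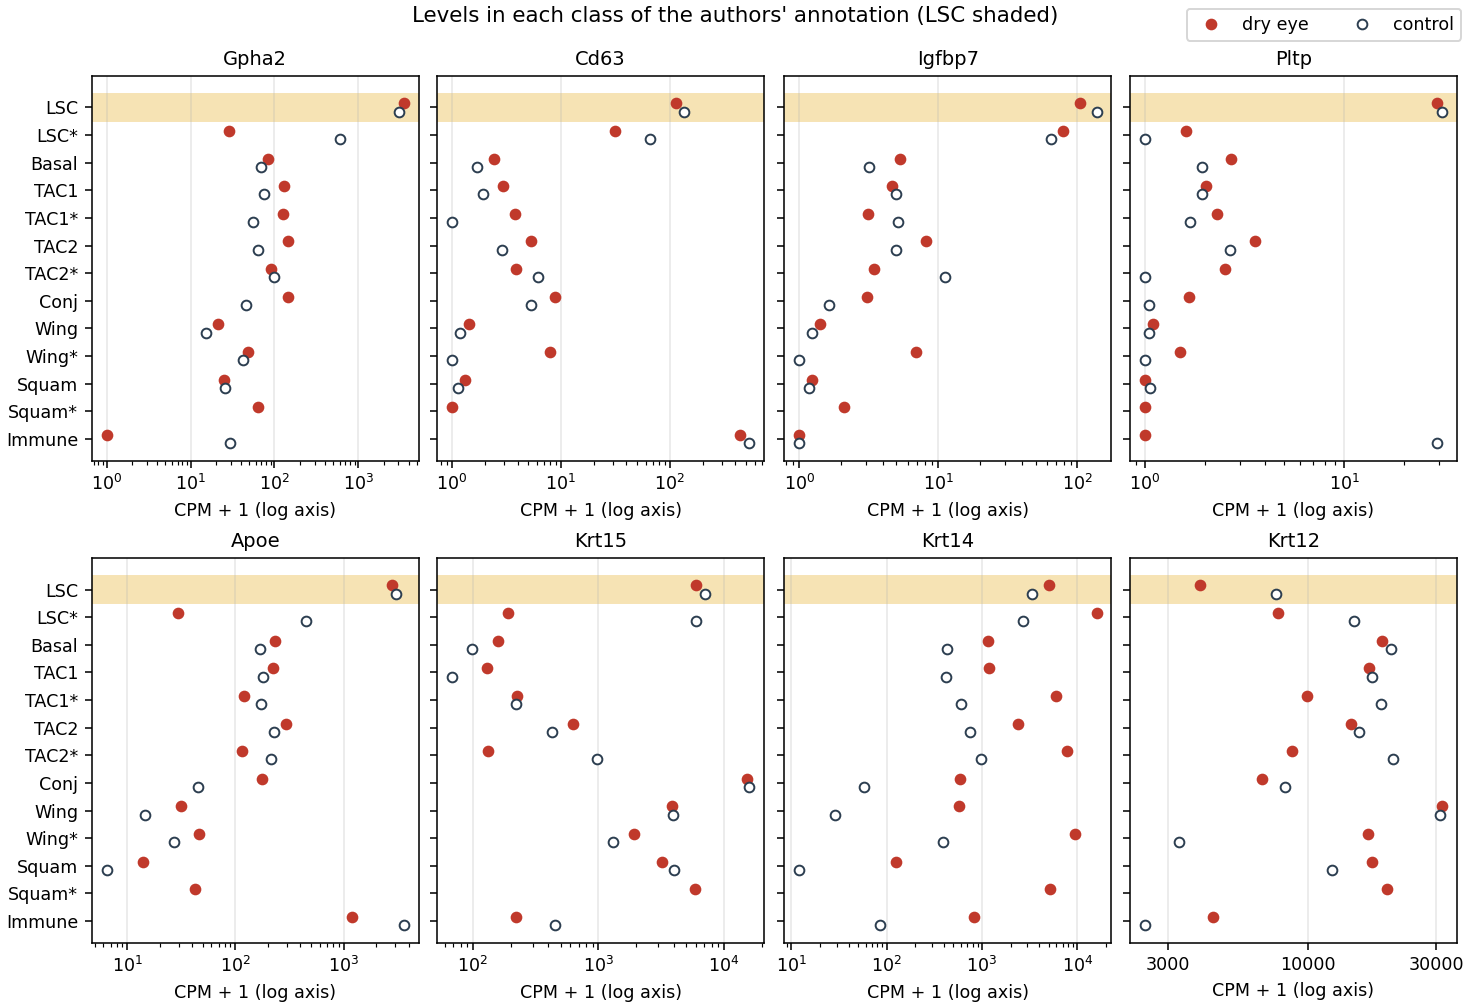
Levels of 8 genes in the 13 annotated classes, as CPM plus 1 on a log axis, with filled red points for dry eye and open points for control. Gpha2 reached 3475 CPM in dry eye LSC cells and 3067 in control LSC cells, while Krt15 was higher in Conj cells than in LSC cells of both libraries.

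The plot of levels by class shows that Gpha2 and Apoe separate LSC from the other large classes, and that Krt15 and Krt14 do not. At a fixed 3000 UMIs per cell, which left out 104 dry eye and 82 control cells, 92.0% of the LSC cells in dry eye (89.2 to 94.3, exact 95% interval) and 84.3% of control LSC cells (78.3 to 89.2) held a Gpha2 UMI. In Squam cells, the superficial class with median UMIs of 9518 in dry eye and 9342.5 in control, which should lack the gene, the shares were 4.91% in dry eye and 6.73% in control. Without thinning the LSC shares were 94.1% in dry eye and 84.3% in control. Over the 4446 genes, the LSC profile was closest to TAC2, the mitotic transit amplifying class, and to Basal: Pearson's r of log2(CPM + 1) across genes, which are not independent replicates, was 0.916 and 0.914 in dry eye and 0.902 and 0.904 in control.

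Markers of immune, pigment and red cells were at or near 0 in LSC cells. The 7 immune markers summed to 2.11 CPM in dry eye LSC cells and 5.32 in control LSC cells, against 36173 in dry eye and 50787 in control cells of the Immune class, and 2 of the 7 were at 0 in dry eye and 4 in control. The 4 T cell markers summed to 0.703 CPM in dry eye and 0 in control, with 3 of them at 0 in dry eye and 4 in control, and the 2 red cell markers measured were at 0 in both libraries. Melanocyte markers summed to 1.41 CPM in dry eye and 1.33 in control over 3 genes, and endothelial markers to 3.75 CPM in dry eye and 1.996 in control over 2, which was low but the highest sum of the 13 classes in both libraries. Dcn, the 1 stromal marker measured, had 9.84 CPM in dry eye and 9.98 in control, and the 3 Schwann cell markers measured summed to 13.6 CPM in dry eye and 11.3 in control. Of 3 goblet cell markers measured, Spdef and Tff1 were at 0 and Agr2 had 27.2 CPM in dry eye and 41.9 in control. The part of such cells in the results was not tested. Conjunctival keratins were present at 774 CPM in dry eye and 599 in control, against 11990 in dry eye and 9645 in control Conj cells. Genes of differentiated corneal cells, Krt12, Aldh3a1 and Slurp1, summed to 7797 CPM in dry eye LSC cells and 13611 in control LSC cells, against 50181 in dry eye and 49141 in control Wing cells.

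LSC cells made up 3.61% of the dry eye library (3.33 to 3.90) and 1.53% of the control library (1.35 to 1.72), a ratio of shares of 2.36 (2.04 to 2.74). Set against the LSC, TAC1, TAC2 and Basal cells alone, which leaves out the upper layers, conjunctival cells and starred classes, LSC made up 9.26% in dry eye (8.56 to 10.0) and 3.81% in control (3.38 to 4.29). These are shares of recovered cells and give no number of cells per eye.

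The class was not uniform. On the authors' embedding, in which cells with like transcripts lie near each other, LSC cells formed a centre with 3 arms, and 4 regions were drawn by eye after the map was seen, with bounds at -0.4 on the second axis and at 1 and 2.7 on the first. The centre held 412 of the 592 LSC cells in dry eye (69.6%, 65.7 to 73.3) and 139 of the 267 in control (52.1%, 45.9 to 58.2). Its cells were rich in Gpha2, at 4139 CPM in dry eye and 4708 CPM in control. The left arm held 73 dry eye cells (12.3%) and 47 control cells (17.6%) and was rich in Krt15, at 12987 CPM in dry eye and 14374 in control, and in Krt19, a keratin of simple and conjunctival epithelia, at 671 CPM in dry eye and 498 in control. In the centre Krt19 had 14.7 CPM in dry eye and 41.1 in control.

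The right arm, with 69 dry eye cells (11.7%) and 29 control cells (10.9%), was rich in Krt12, at 12071 CPM in dry eye and 19547 in control. The lower arm held 38 LSC cells in dry eye (6.42%, 4.58 to 8.70) and 52 in control (19.5%, 14.9 to 24.7). It was low in Gpha2, with 573 CPM in dry eye and 539 in control, high in both Krt15 and Krt12, and shallow, with median UMIs of 2384.5 in dry eye and 1218.5 in control against 5790 in dry eye and 4820 in control in the centre. Control cells of the class thus had a larger share in the lower arm and a smaller share in the centre. In the left arm the intervals overlapped (9.79 to 15.3 in dry eye and 13.2 to 22.7 in control), and in the right arm the shares were close. The lower arm was also the shallowest region in both libraries, and the part of depth in its share was not tested.

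**Figure D2:**
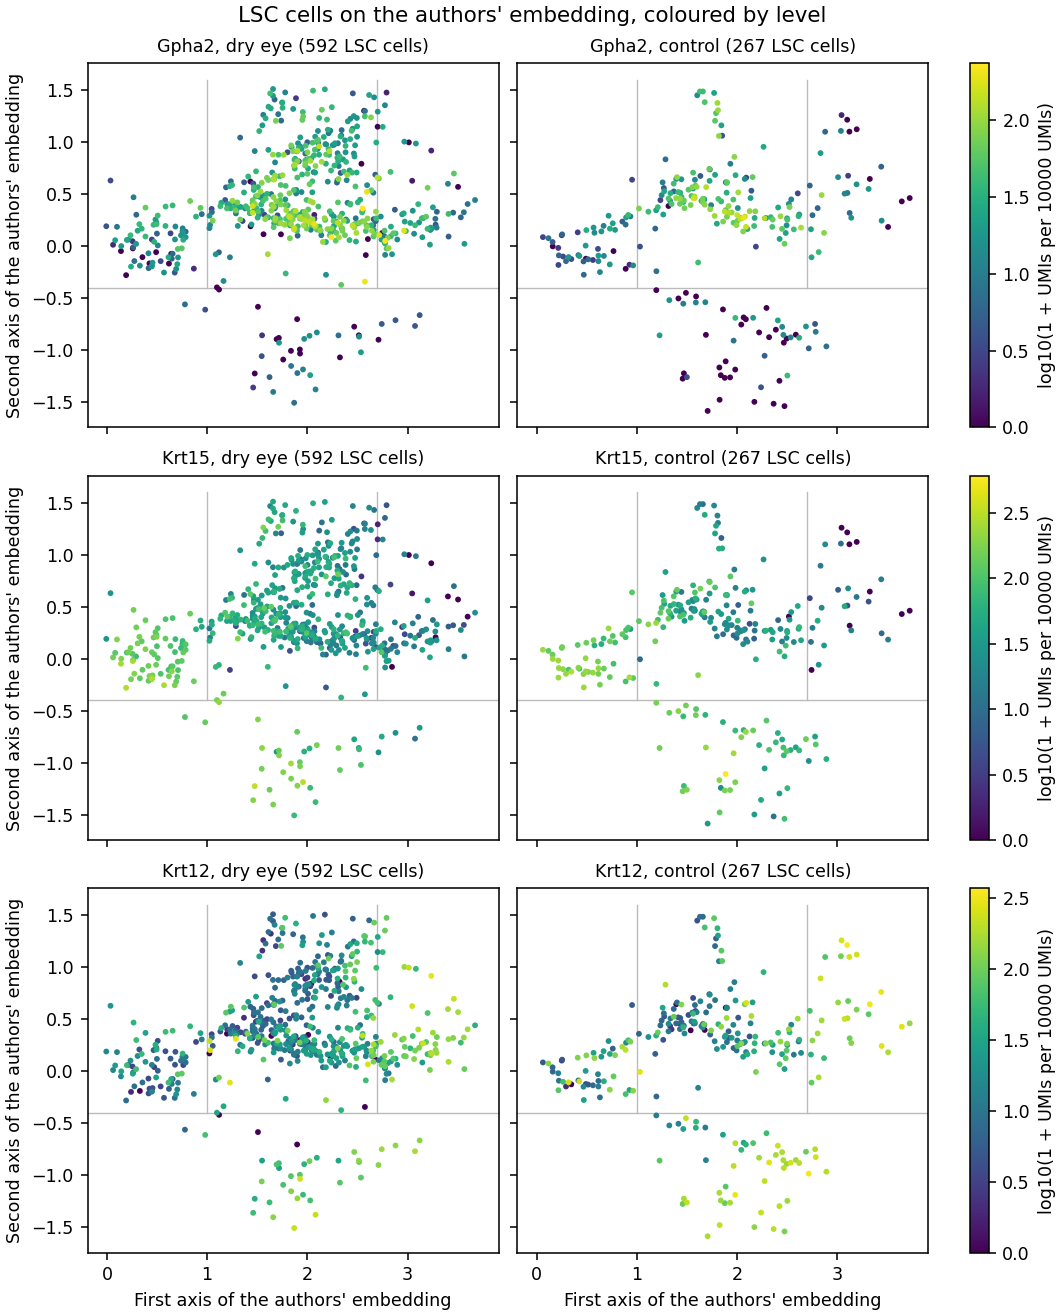
LSC cells on the 2 axes of the authors' embedding (no unit), dry eye left and control right, coloured by UMIs of Gpha2, Krt15 and Krt12 per 10000 UMIs of the cell; grey lines bound the 4 regions. Gpha2 is high in the centre, Krt15 in the left and lower arms and Krt12 in the right and lower arms, and 6.42% of dry eye cells lie in the lower arm against 19.5% of control cells.

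The maps of Gpha2, Krt15 and Krt12 show these genes high in the same regions of both libraries. They also show that the dry eye cells filled the upper part of the centre more densely: above 0.6 on the second axis, a bound likewise drawn after the map was seen, lay 164 dry eye LSC cells (27.7%, 24.1 to 31.5) and 35 control LSC cells (13.1%, 9.30 to 17.8). The rest of the centre held 41.9% of dry eye and 39.0% of control LSC cells, so the larger share of the centre in dry eye lay mostly in its upper part. Median UMIs in the upper part were 7022.5 in dry eye and 6274 in control. Across cells of a library, which share their capture and differ in depth, Spearman's rho between Gpha2 and Apoe was 0.54 in 592 dry eye cells and 0.69 in 267 control cells. Gpha2 ran against Krt12, with rho of -0.22 in dry eye and -0.43 in control, and against Krt15, with -0.22 in dry eye and -0.40 in control. Krt12 ran with Lypd2, a Ly6-family gene of the corneal surface, at 0.65 in dry eye and 0.74 in control. Krt15 ran with Krt4, a keratin of mucosal epithelia, at 0.50 in dry eye and 0.53 in control. The LSC label thus covered cells with high Gpha2 and Apoe, cells with high Krt15, Krt19 and Krt4, and cells with Krt12 and other transcripts of the differentiating cornea.

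Per cell, Gpha2 had a median of 27.6 UMIs per 10000 in dry eye, with quartiles of 10.1 and 54.7, and of 16.9 in control, with quartiles of 3.64 and 47.1. Krt12 had a median of 16.6 per 10000 in dry eye, with quartiles of 7.27 and 50.005, and of 31.9 in control, with quartiles of 9.64 and 126. Both the median and the upper quartile of Krt12 were lower in dry eye. With a bound of 100 UMIs per 10000, set after the values were seen, 67 dry eye LSC cells (11.3%, 8.88 to 14.1) and 81 control LSC cells (30.3%, 24.9 to 36.2) were high in Krt12, and 45 dry eye and 29 control cells lay within 20% of that bound. Cells with at least 10 UMIs of Gpha2 per 10000 made up 75.5% of the class in dry eye (71.8 to 78.9) and 60.7% in control (54.5 to 66.6), and 40 dry eye and 17 control cells lay within 20% of that bound.

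**Figure D3:**
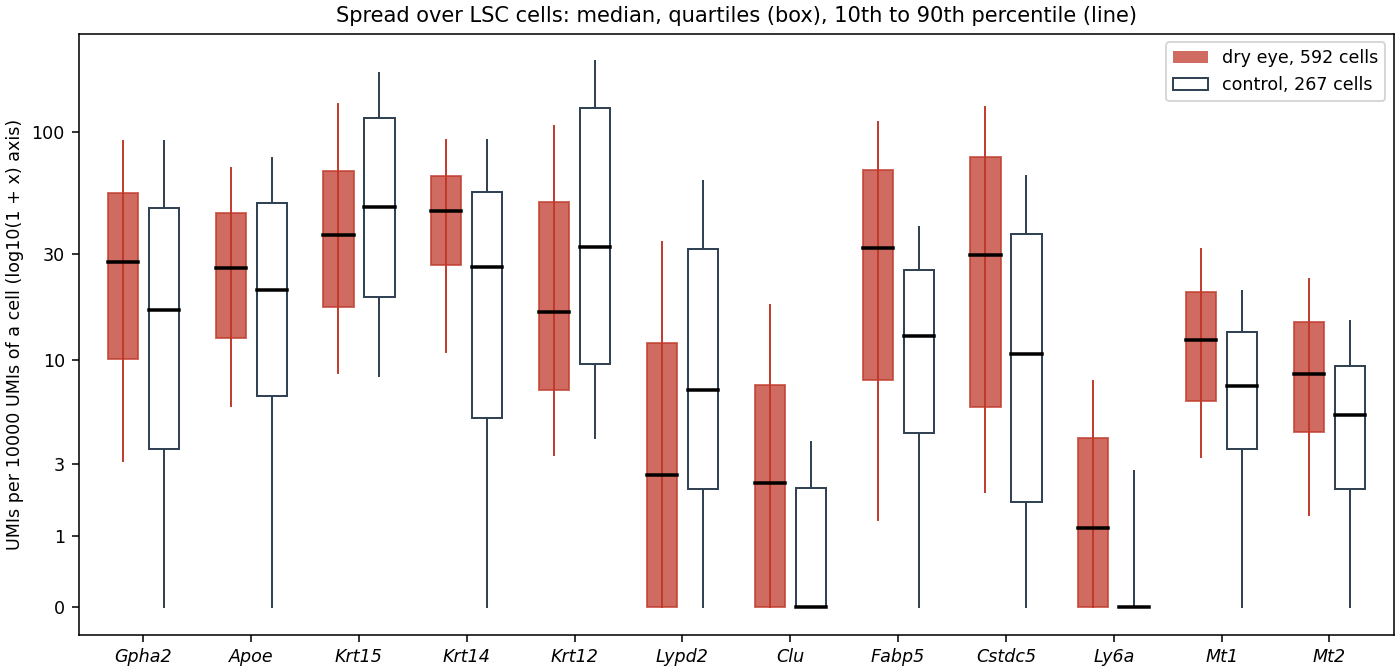
UMIs per 10000 of the cell, on a log axis of the value plus 1, for 12 genes in LSC cells, dry eye left of control, with the median, a box from the lower to the upper quartile and a line from the 10th to the 90th percentile. Median Gpha2 was 27.6 in dry eye and 16.9 in control, median Krt12 16.6 in dry eye and 31.9 in control, and median Fabp5 31.6 in dry eye and 12.9 in control.

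The comparison of dry eye with control LSC cells asked which transcripts of the class were higher or lower after loss of tears. A gene was compared if its UMIs in the 2 libraries summed to 100 or more and its level reached 20 CPM in at least 1 of them, and a difference of 1.5-fold was used as the bound of size, which is no test. Of 5042 genes, 140 were at least 1.5-fold higher in dry eye (2.78%) and 277 at least 1.5-fold lower (5.49%), and the median log2 ratio was -0.05. At 2-fold 25 genes were higher and 33 lower. With each ratio divided by the median ratio, 176 genes were at least 1.5-fold higher and 203 lower, so the excess of lower genes changed with the scaling. Under the same rule Basal cells had 28 higher and 22 lower of 4655 genes, TAC1 38 higher and 19 lower of 4735, TAC2 72 higher and 53 lower of 5119, Conj 32 higher and 5 lower of 4525, Wing 107 higher and 54 lower of 4755, Squam 117 higher and 204 lower of 3686, and TAC1* 734 higher and 680 lower of 5197. The classes differ in cell number and so in counting error, and the difference between classes was not tested.

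The genes with the highest ratios in dry eye LSC cells were ranked by the interval bound nearest to 1, and Krt16, Clu, Fabp5, Ly6a and Cstdc5 led them. Krt16, a keratin that epithelia make when wounded or inflamed, had 154 CPM in dry eye and 21.95 in control, a ratio of 7.01 (4.94 to 10.3). A Krt16 UMI was found in 112 dry eye cells and 13 control cells. The 10 cells with the most held 70.9% of its UMIs in dry eye and 90.9% in control, and 15 of its 33 control UMIs lay in 1 cell. The size of the ratio therefore depends on few cells. It was 4.25 with each cell weighted equally and 22.9 without the 10 cells with the most UMIs in each library. Leaving out 10 cells takes a larger part of the 267 control cells than of the 592 dry eye cells. Under that setting the median log2 ratio of all genes compared was 0.14 against -0.05 with all cells, so the 22.9 leans toward dry eye. Clu (chr14:65968483-65981547, mm10, plus strand), which encodes the secreted chaperone clusterin, known for protecting the ocular surface, had 714 CPM in dry eye and 150 in control, a ratio of 4.77 (4.17 to 5.49). At 3000 UMIs per cell, 53.7% of dry eye LSC cells (49.2 to 58.2) and 32.4% of control LSC cells (25.7 to 39.7) held a Clu UMI. Clu is also a transcript of the differentiated cornea, and in Squam cells, which make it, the shares were 32.1% in dry eye and 33.3% in control, so the dry eye LSC cells stood above the Squam cells of their own library and the control LSC cells did not.

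Fabp5, the fatty acid-binding protein of keratinocytes, had 5572 CPM in dry eye and 1770 in control, a ratio of 3.15 (3.03 to 3.28). Cstdc5, a member of the stefin family of cysteine protease inhibitors, had 5994 CPM in dry eye and 2390 in control, a ratio of 2.51 (2.42 to 2.60). Serpina3n, a serine protease inhibitor of the acute phase, had 23.7 CPM in dry eye and 4.66 in control, a ratio of 5.08 (2.38 to 13.0) that rests on 101 UMIs in dry eye and 7 in control. Ly6a, the surface protein also called Sca-1, had 308 CPM in dry eye and 88.5 in control, a ratio of 3.48 (2.91 to 4.19). At 3000 UMIs per cell it was found in 43.2% of dry eye and 18.9% of control LSC cells, neither above the shares in Squam cells, 45.7% in dry eye and 56.2% in control. Fabp5, Cstdc5 and Ly6a were higher in dry eye in all 4 regions of the embedding. Genes with close copies, among them the stefins, the Krt6 and Krt16 groups, the metallothioneins and the Ly6 family, may share reads, and the sources used here do not say how the authors' counting treated them.

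Krt17, a keratin of activated and appendage epithelium, had 730 CPM in dry eye and 319 in control, a ratio of 2.29 (2.08 to 2.52), and Krt6a, partner of Krt16, had 855 CPM in dry eye and 446 in control, a ratio of 1.92 (1.77 to 2.08). With each cell weighted equally the ratios were smaller, at 1.35 for Krt17 and 1.23 for Krt6a, neither past 1.5-fold. Lgals7, a galectin of stratified epithelium, had 1864 CPM in dry eye and 911 in control, a ratio of 2.04 (1.93 to 2.17). Plscr1, a phospholipid scramblase, had 47.6 CPM in dry eye and 16.6 in control, a ratio of 2.86 (1.88 to 4.52), and Stom, the membrane protein stomatin, had 73.3 CPM in dry eye and 28.6 in control, a ratio of 2.56 (1.86 to 3.61). Wfdc18, a small secreted protein with a whey acidic protein domain, had 51.5 CPM in dry eye and 15.3 in control, but 143 of its 220 dry eye UMIs were in 1 cell.

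The genes with the lowest ratios in dry eye LSC cells included several of the differentiated corneal epithelium. Lypd2 had 969 CPM in dry eye and 2134 in control, a ratio of 0.454 (0.434 to 0.476), and its neighbour on chromosome 15, Slurp1, which encodes a secreted Ly6-family protein made by corneal cells, had 752 CPM in dry eye and 1547 in control, a ratio of 0.486 (0.461 to 0.513). Aqp5, the water channel of the corneal epithelium, had 565 CPM in dry eye and 1221 in control, a ratio of 0.463 (0.435 to 0.492). Mal, a lipid raft protein of apical transport, had 232 CPM in dry eye and 486 in control, a ratio of 0.477 (0.433 to 0.525). Krt12 was lower too, with 3947 CPM in dry eye and 7579 in control, a ratio of 0.521 (0.508 to 0.533). Free RNA from broken corneal cells can add to such counts: Immune cells, which should lack both genes, held a mean of 7.13 Krt12 UMIs per cell in dry eye and 4.35 in control, against 28.5 in dry eye and 42.7 in control LSC cells. For Lypd2 these were 2.90 UMIs in dry eye and 2.05 in control Immune cells, against 6.99 in dry eye and 12.015 in control LSC cells. When free RNA was estimated by the lowest per-cell mean that a gene reached among the other classes of its library, of at least 20 cells each, and subtracted, the ratios lay further from 1, at 0.300 for Lypd2, 0.296 for Aqp5, 0.339 for Slurp1 and 0.387 for Mal.

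Several of these differences were smaller among LSC cells that were low in Krt12. In the 525 dry eye and 186 control cells with fewer than 100 Krt12 UMIs per 10000, the ratio of Krt12 itself was 0.903 (0.867 to 0.941), which the choice of cells partly fixes. In the same cells Lypd2 had a ratio of 0.826 (0.761 to 0.898), Aqp5 of 0.951 (0.854 to 1.06), Mal of 0.792 (0.693 to 0.908) and Slurp1 of 0.585 (0.534 to 0.642). Lypd2, Aqp5 and Slurp1 ran with Krt12 across cells, with rho between 0.42 for Slurp1 in dry eye and 0.74 for Lypd2 in control. The choice of cells therefore partly fixes their ratios too, and its part in the ratios of other genes was not tested. The higher genes kept their size, with a ratio of 5.97 (4.12 to 8.99) for Krt16, 5.87 (4.93 to 7.05) for Clu and 2.68 (2.57 to 2.80) for Fabp5. The number of genes at least 1.5-fold higher was 162 of 4690 in these cells and the number lower 207. Within each region of the embedding, Krt12 was lower in dry eye: the ratios were 0.712 in the centre, 0.354 in the left arm, 0.618 in the right arm and 0.545 in the lower arm.

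The other low genes differed in how much of their difference was left among cells low in Krt12. Aldh1a1, a retinaldehyde dehydrogenase, had 10.8 CPM in dry eye and 38.6 in control, a ratio of 0.279 (0.185 to 0.418), and 0.296 (0.177 to 0.499) among cells low in Krt12. Ptgr1, a prostaglandin reductase, had 41.0 CPM in dry eye and 122 in control, a ratio of 0.337 (0.272 to 0.417), and 0.601 among cells low in Krt12. Dsg1a, a desmosomal cadherin of the upper layers, had 41.2 CPM in dry eye and 108 in control, a ratio of 0.383 (0.307 to 0.477), and 0.533 among cells low in Krt12. Plac8 had 22.96 CPM in dry eye and 78.5 in control, a ratio of 0.292 (0.221 to 0.386), but 0.782 (0.503 to 1.25) among cells low in Krt12. Rnf152, a lysosomal ubiquitin ligase, had a ratio of 0.371 (0.277 to 0.497) and Guca1a, a guanylate cyclase activator best known from photoreceptors, had 0.395 (0.302 to 0.519), and among cells low in Krt12 these were 0.671 and 0.734.

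The low ratios of 2 genes rest on a few control cells. Gbp2, an interferon-induced GTPase, had 9.60 CPM in dry eye and 39.3 in control, a ratio of 0.245 (0.160 to 0.371), and 52 of its 59 control UMIs lay in 2 cells, while its 41 dry eye UMIs lay in 37 cells. S100a8, a calgranulin of neutrophils and stressed epithelium, had 11.9 CPM in dry eye and 44.6 in control, a ratio of 0.268 (0.182 to 0.392), and all 67 of its control UMIs lay in 4 cells. The same 4 control cells held 65 of the 66 control UMIs of S100a9, the partner of S100a8, and 65 of the 83 control UMIs of Lcn2. In dry eye, S100a8 was found in 18 cells, 5 of them with Lcn2, so its share of cells was 3.04% in dry eye and 1.498% in control although its level was lower.

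Across the 4 regions of the embedding, 8 of the 12 highest genes were higher in dry eye in all 4, and 6 of these passed 1.5-fold in all 4. Of the 12 lowest genes, 10 were lower in all 4 regions, and 7 passed 1.5-fold in all 4. These genes were picked by their ratio over the same cells, which largely fixes their direction in the regions. The counts are therefore a description and no check, and the same counts over all genes compared were not taken. Clu had ratios of 6.70 in the centre, 2.73 in the left arm, 2.86 in the right arm and 2.09 in the lower arm. Within the centre, Clu had 1331 CPM in dry eye and 174 in control in the upper part, a ratio of 7.67 (5.74 to 10.48), and 352 CPM in dry eye and 99.9 in control in the rest, a ratio of 3.52 (2.68 to 4.71). Fabp5 had 8379 CPM in dry eye and 2688 in control in the upper part, and 4144 in dry eye and 2043 in control in the rest. The upper part of the dry eye centre, which held the added share of cells, thus had more Clu and Fabp5 than the rest of it, and both genes were higher in dry eye in each part. The counts behind the smaller regions were low, with 45 dry eye and 21 control Clu UMIs in the lower arm. For other genes they were lower still. Krt16 had 11 dry eye UMIs and 1 control UMI in the right arm (0.661 to 196) and 8 and 2 in the lower arm (0.777 to 37.7). In the lower arm Plscr1 had 4 and 2 (0.279 to 21.5) and Aldh1a1 0 and 2. Serpina3n and Wfdc18 had UMIs in only 3 regions, none in the lower arm. Clu was thus higher and Krt12 lower in dry eye within each region, as well as over the class, where the centre had a larger share in dry eye.

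No marker of the class passed 1.5-fold over the whole class. Gpha2 had a ratio of 1.13 (1.10 to 1.17) over the whole class, Cd63 of 0.835 (0.707 to 0.989), Sbspon of 0.895 (0.599 to 1.36), Pltp of 0.939 (0.661 to 1.35), Krt15 of 0.844 (0.825 to 0.863), Igfbp7 of 0.764 (0.646 to 0.906) and Lcn2 of 0.696 (0.531 to 0.917). Among cells low in Krt12, Cd63 at 0.647, Igfbp7 at 0.619 and Lcn2 at 0.537 were past 1.5-fold lower in dry eye. The direction for Gpha2 changed with the cells counted. In the centre it had 4139 CPM in dry eye and 4708 in control, a ratio of 0.879 (0.848 to 0.911), and among cells low in Krt12 the ratio was 0.932 (0.900 to 0.965). In the left arm it had 2505 CPM in dry eye and 1102 in control, a ratio of 2.27 (2.05 to 2.52), in the right arm 1984 CPM in dry eye and 765 in control, a ratio of 2.59 (2.12 to 3.20), and in the lower arm the ratio was 1.06 (0.749 to 1.51). Apoe had ratios of 0.741 (0.714 to 0.770) in the centre, 1.45 in the left arm, 1.37 in the right arm and 2.54 in the lower arm.

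Gpha2 and Apoe were thus lower in dry eye in the centre, where both had their highest levels, and higher in the left and right arms. A higher Gpha2 level in dry eye was not particular to these arms. In Basal, TAC1, TAC2, Conj, Wing and Squam cells its ratio lay between 0.969 in Squam and 3.19 in Conj, past 1.5-fold in 3. Its dry eye level in those classes was low, between 20.4 CPM in Wing and 143 CPM in Conj. The part of free RNA in these ratios was not tested. Within the centre, Gpha2 had 3342 CPM in dry eye and 3427 in control in the upper part, a ratio of 0.975 (0.909 to 1.05), and 4886 CPM in dry eye and 5306 in control in the rest, a ratio of 0.921 (0.883 to 0.961), so the larger dry eye share of the upper part, where Gpha2 was lower, enters the ratio of the whole centre. Apoe stood at 0.641 in the upper part and 0.873 in the rest. Krt14 was higher in dry eye in all 4 regions, with ratios of 1.23, 2.38, 2.04 and 2.18 from the centre to the left, right and lower arms, and 1.53 (1.48 to 1.57) over the class. In the 6 other large classes its ratios were higher than in LSC, between 2.69 in Basal and 20.7 in Wing. It had a UMI in 97.5% of dry eye LSC cells and 80.5% of control LSC cells, both at 3000 UMIs per cell and without thinning. In Squam cells the thinned shares were 19.1% in dry eye and 2.51% in control. Across cells, Krt14 ran against Krt12, with rho of -0.24 in dry eye and -0.48 in control.

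**Figure D4:**
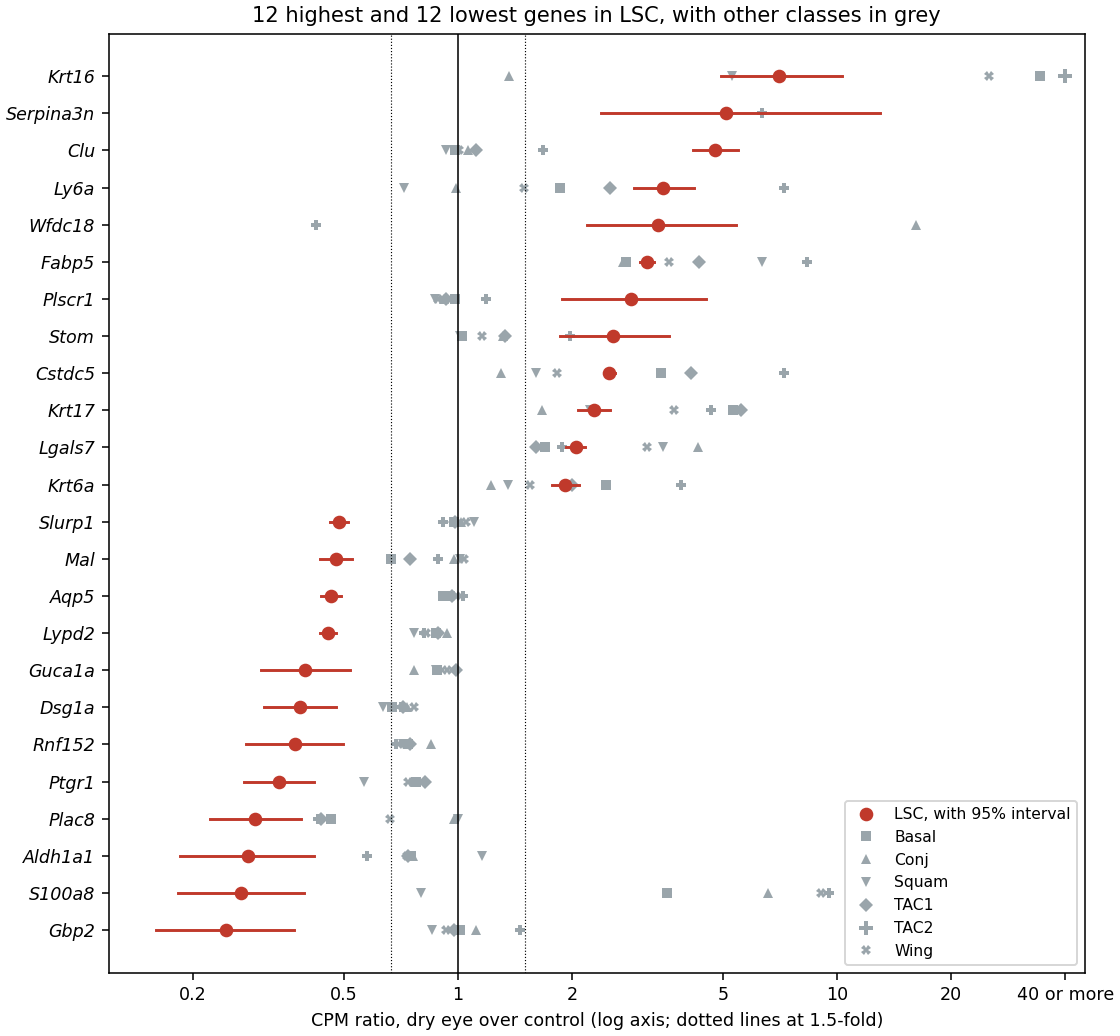
Ratio of dry eye to control, on a log axis, for the 12 highest and the 12 lowest genes in LSC cells, with the 95% counting interval for LSC and grey points for 6 other classes where they had at least 20 UMIs. Clu stands at 4.77 in LSC cells and between 0.931 and 1.67 in the other 6 classes, and Lypd2 at 0.454 in LSC cells and between 0.766 and 0.937 in the others.

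The plot of ratios by class places these genes beside the other classes of the same 2 libraries. Fabp5 was higher in dry eye in all 6 of Basal, TAC1, TAC2, Conj, Wing and Squam, with ratios between 2.72 in Conj and 8.35 in TAC2. Lgals7 was past 1.5-fold higher in all 6 too, with its highest ratio, 4.31, in Conj. Cstdc5 was past 1.5-fold higher in 5 of the 6, with ratios between 1.299 in Conj and 7.23 in TAC2. Ly6a was past 1.5-fold higher in 3, with ratios between 0.719 in Squam and 7.25 in TAC2. Serpina3n had ratios for 4 classes, between 2.39 in TAC1 and 24.2 in Wing. Clu had ratios between 0.931 in Squam and 1.67 in TAC2, and Plscr1 between 0.870 and 1.18, against 2.86 in LSC cells. Aqp5 had ratios between 0.913 and 1.03 and Slurp1 between 0.914 and 1.10, against 0.463 for Aqp5 and 0.486 for Slurp1 in LSC cells. Stress keratins other than Krt6b were also higher in the other classes. Krt17 was past 1.5-fold in all 6, with ratios between 1.67 in Conj and 5.57 in TAC1. Krt6a had ratios between 1.22 in Conj and 3.88 in TAC2. Krt16 had control UMIs in only 5 of the 6, with ratios between 1.36 in Conj and 343.9 in TAC2. Without control UMIs no finite ratio could be given for the remaining class. Krt6b had ratios between 0.977 in TAC1 and 1.74 in TAC2, past 1.5-fold in 1 class. In TAC1*, which is mostly drawn from dry eye, Clu stood at 5.37 and Plscr1 at 2.47. With 1 library per group, whether a ratio in LSC cells differs from that in another class could not be tested.

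Stress keratins were higher in dry eye in 4 of 4 members, with a median log2 ratio of 1.07 against -0.05 over all 5042 genes. Each list is counted over its members with enough UMIs to compare, such as 21 of 26 limbal genes and 16 of 18 corneal identity genes, and is read against the 2.78% of all genes that were higher and the 5.49% that were lower. Krt6b, at 1.503 (1.29 to 1.76), was the smallest, with 202 CPM in dry eye and 134 in control, and it was below 1 in the centre of the embedding (0.790) and in the mean over cells (0.982). Among the 21 compared genes of the limbal zone and its progenitors, 6 were at least 1.5-fold higher and 0 lower, with a median of -0.03. Besides Krt17 and Krt14, Wfdc2, an antiprotease of the whey acidic protein family, had 879 CPM in dry eye and 530 in control, a ratio of 1.66 (1.54 to 1.79). Cebpd, a transcription factor linked in human limbal cells to growth arrest, had 57.4 CPM in dry eye and 28.6 in control, a ratio of 2.01 (1.45 to 2.84), and Sox9, a transcription factor of epithelial progenitors, had 80.8 CPM in dry eye and 49.2 in control, a ratio of 1.64 (1.27 to 2.14). The remaining member past the bound was the laminin chain Lamb3. The count was less one-sided in parts of the class, with 4 higher and 3 lower (Cd63, Igfbp7 and Lcn2) among cells low in Krt12, and 4 higher and 1 lower (Igfbp7) among cells with at least 10 UMIs of Gpha2 per 10000.

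Corneal identity genes had 1 of 16 members at least 1.5-fold higher, Clu, and 4 lower, Krt12, Aldh1a1, Dsg1a and Slurp1, with a median log2 ratio of -0.33. Aldh3a1, the corneal crystallin aldehyde dehydrogenase, had 3098 CPM in dry eye and 4485 in control, a ratio of 0.691 (0.671 to 0.711). Pax6, the transcription factor that maintains corneal fate, had 394 CPM in dry eye and 435 in control, a ratio of 0.905 (0.826 to 0.992). Trp63, which encodes the p63 protein of stratified epithelial stem cells, had 210 CPM in dry eye and 217 in control, a ratio of 0.969 (0.853 to 1.10). Neither transcription factor passed 1.5-fold, while Krt12, Aldh1a1, Dsg1a and Slurp1 did. Of 4 cornified envelope genes with enough UMIs 1 was lower, Calml3, a calmodulin-like protein, at 0.613 (0.584 to 0.644), and 0 were higher, with a median of -0.35.

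Notch signalling is known to drive differentiation of epithelial cells, and of its 9 compared genes 3 were at least 1.5-fold lower in dry eye LSC cells and 0 higher, with a median of -0.45. The receptor Notch1 had 71.9 CPM in dry eye and 112 in control, a ratio of 0.640 (0.528 to 0.776), and the receptor Notch3 had 22.7 CPM in dry eye and 34.6 in control, a ratio of 0.657 (0.464 to 0.939). Nrarp, a target and feedback inhibitor of the pathway, had 25.8 CPM in dry eye and 39.9 in control, a ratio of 0.646 (0.467 to 0.900). The ligand Jag1 stood just inside the bound at 0.672 (0.561 to 0.807), and the target Hes1 at 0.734 (0.658 to 0.820). The ligand Jag2 at 1.05 and the transcription factor Rbpj at 1.38 (0.951 to 2.05) were the exceptions. Among cells low in Krt12, 2 of the 9 were lower, Notch1 and Jag1, with a median of -0.38, and among cells with at least 10 UMIs of Gpha2 per 10000 1 was lower, Notch1, with a median of -0.17. In other classes Notch1 had ratios between 0.840 in Squam and 1.14 in Conj.

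Genes of the TGF-beta and BMP pathways had 3 of 12 members higher and 0 lower, with a median of 0.06. The ligand Tgfb1 had 32.1 CPM in dry eye and 18.0 in control, a ratio of 1.79 (1.18 to 2.81). Ltbp1, which binds latent TGF-beta in the matrix, had 28.1 CPM in dry eye and 9.31 in control, a ratio of 3.02 (1.73 to 5.69) on 120 UMIs in dry eye and 14 in control, and Bambi, a decoy receptor, had 20.4 CPM in dry eye and 11.97 in control, a ratio of 1.70 (1.02 to 3.01). Ltbp1 was past 1.5-fold higher in all 5 other classes with control UMIs, with ratios between 1.64 in Basal and 12.4 in Wing. The BMP targets Id1 and Id3 stood at 0.990 and 1.03. Wnt genes had 0 of 11 higher and 1 lower, Wnt7b, with a ratio of 0.596 (0.414 to 0.867), while Wnt4, another ligand, stood at 1.07 (0.981 to 1.18). None of 6 EGFR pathway genes passed the bound, with a median of -0.21.

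Among 14 basement membrane adhesion genes, 2 were higher and 1 lower, with a median of 0.09. Itga3, the integrin chain that binds laminin-332, had 28.1 CPM in dry eye and 17.3 in control, a ratio of 1.63 (1.06 to 2.59), and Lamb3, a chain of laminin-332, had 45.2 CPM in dry eye and 28.6 in control, a ratio of 1.58 (1.13 to 2.25). In the 6 other large classes Lamb3 had ratios between 1.20 in TAC1 and 3.43 in Squam, past 1.5-fold in 4. Lamb1, a chain of other laminins, stood at 0.472 (0.314 to 0.714). The hemidesmosome genes Itga6 and Col17a1 stood at 1.003 and 1.04. Of 11 matricellular and matrix genes, 2 were higher, Sparc, which modulates the contact of cells with matrix, with 69.1 CPM in dry eye and 34.6 in control, a ratio of 1.998 (1.48 to 2.74), and Fbln1, the matrix protein fibulin-1, with a ratio of 1.59 (1.23 to 2.09). Both were past 1.5-fold higher in 4 of the 6 other large classes too. Sparc had ratios there between 1.27 in TAC1 and 4.98 in Squam, and Fbln1 between 1.21 in Squam and 1.61 in Wing. The 3 lower members were Timp3, a matrix-bound inhibitor of proteases, with 46.4 CPM in dry eye and 80.5 in control, a ratio of 0.576 (0.457 to 0.729), and the water channels Aqp5 and Aqp3, which the list also holds, Aqp3 at 0.657 (0.621 to 0.695).

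Of 13 lipoprotein and lipid transport genes, 2 were higher, Clu and Fabp5, and 3 lower, with a median of -0.12. Of the lower genes, Scd2, a fatty acid desaturase, had 99.6 CPM in dry eye and 190 in control, a ratio of 0.525 (0.451 to 0.612). Among cells low in Krt12, 3 of the 13 were higher and 0 lower.

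Immune and stress genes gave few differences. Of 12 alarmin and antimicrobial genes, 2 were higher and 1 lower, with a median of -0.01. Besides Wfdc2, Cxcl16, a membrane-bound chemokine, had a ratio of 1.61 (1.03 to 2.58). In the 6 other large classes Cxcl16 had ratios between 0.985 in Conj and 3.40 in Wing, past 1.5-fold in 4. Of 11 MHC class I genes 1 was higher, B2m, the light chain, with 151 CPM in dry eye and 94.5 in control, a ratio of 1.602 (1.33 to 1.93), and 1 was lower, H2-T23, a nonclassical heavy chain, at 0.631 (0.519 to 0.769). The 2 type I interferon genes with enough UMIs were Ifi35 at 0.743 (0.576 to 0.964) and Ifi27l2a at 0.464 (0.361 to 0.598). Of 5 NF-kB genes 1 was higher, Nfkb1, a subunit of the factor, at 1.72 (1.25 to 2.40). Of 14 genes of heat shock and of the stress of freeing cells from tissue none passed the bound, with a median of -0.01. Of 13 antioxidant genes 2 were lower, Mgst1 at 0.503 (0.398 to 0.637) and Nqo1 at 0.589 (0.404 to 0.869), and of 10 glycolysis genes 1 was higher, Pkm, pyruvate kinase, at 1.53 (1.33 to 1.75).

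**Figure D5:**
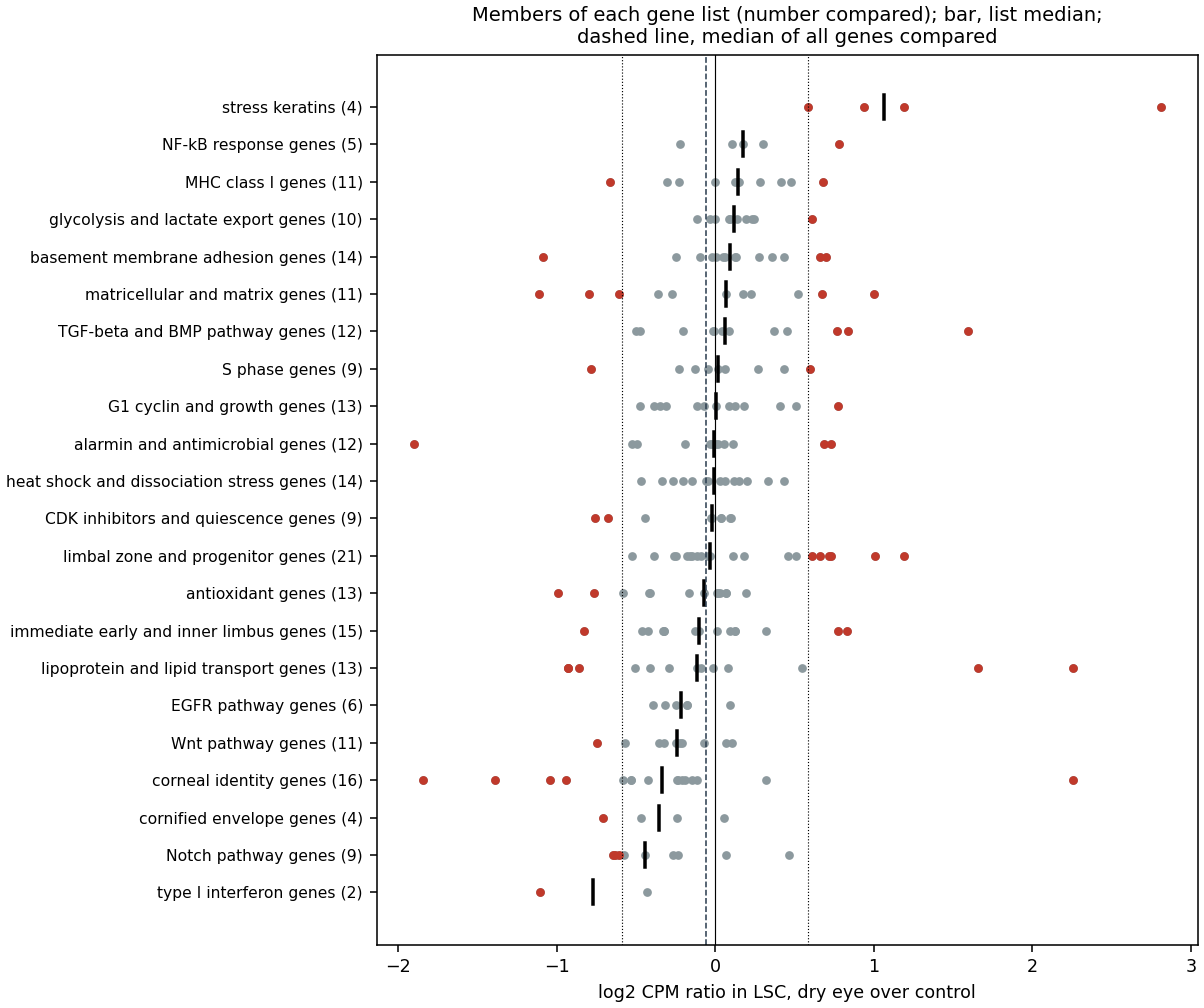
Log2 ratio of dry eye to control in LSC cells for each compared member of 22 gene lists, with a bar at the list's median, a dashed line at the median of all 5042 genes and red points for members past 1.5-fold. The stress keratins lie above 0 with a median of 1.07, while the Notch genes have a median of -0.45 and the corneal identity genes of -0.33.

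The plot of list members shows that most lists held points on both sides of 0 and medians near that of all genes. Among 15 immediate early and inner limbus genes, 2 were higher, the metallothioneins Mt1 and Mt2, and 1 lower, Egr1, an early response transcription factor, at 0.563 (0.414 to 0.771), which turned to 2.94 with free RNA subtracted. Metallothioneins bind zinc and copper and, in the mouse, are also known as markers of the more active inner limbus. Atf3, another gene of that zone, had 7 UMIs in dry eye and 6 in control and was too low to compare. Fos at 1.01 and Jun at 1.25 stayed within the bound.

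Mt1 (chr8:94179082-94180327, mm10, plus strand) had 1642 CPM in dry eye LSC cells and 921 in control LSC cells, a ratio of 1.78 (1.68 to 1.89). Mt2 (chr8:94172664-94173568, plus strand) had 1100 CPM in dry eye and 643 in control, a ratio of 1.71 (1.597 to 1.84). Per cell, Mt1 had a median of 12.3 UMIs per 10000 in dry eye and 7.59 in control, and Mt2 of 8.64 in dry eye and 5.48 in control. Both were higher in dry eye in each region of the embedding, Mt1 with ratios of 2.17 in the centre, 1.35 in the left arm, 1.27 in the right arm and 1.39 in the lower arm. Across cells, rho between Mt1 and Mt2 was 0.54 in dry eye and 0.36 in control. In other classes Mt1 had ratios between 1.15 in Squam and 1.64 in Wing.

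Since both genes were higher and their starts in RefSeq lie 6471 bases apart, their start regions are shown, as RefSeq gives them for GRCm38.p6, from 250 bases before the gene start to 50 bases after it on the plus strand, at chr8:94178839-94179138 for Mt1 and chr8:94172368-94172667 for Mt2. The RefSeq starts differ from those of the coordinates given above, and positions of matches are counted from the RefSeq starts. Capitals mark matches, on either strand, to TGCGCNC and TGCACNC, spellings of the core of the metal response element that metal-responsive transcription factor 1 is known to bind.
Mt1: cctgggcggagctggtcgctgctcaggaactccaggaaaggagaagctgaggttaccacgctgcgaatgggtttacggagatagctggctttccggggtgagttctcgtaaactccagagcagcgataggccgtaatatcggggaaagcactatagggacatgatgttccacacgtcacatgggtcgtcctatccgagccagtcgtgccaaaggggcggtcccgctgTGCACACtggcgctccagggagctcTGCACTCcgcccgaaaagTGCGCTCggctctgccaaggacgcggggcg
Mt2: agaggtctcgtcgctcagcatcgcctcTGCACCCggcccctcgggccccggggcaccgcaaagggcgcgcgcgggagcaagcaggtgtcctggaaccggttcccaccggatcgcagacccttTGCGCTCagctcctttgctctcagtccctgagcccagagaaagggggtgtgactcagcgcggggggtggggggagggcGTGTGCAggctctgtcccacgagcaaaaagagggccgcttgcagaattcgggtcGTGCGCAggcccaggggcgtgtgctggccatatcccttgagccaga
Mt1 has 3 matches, the first bases of which lie at -23, 3 and 21 from the gene start, and Mt2 has 4, at -223, -128, -50 and 5, none of them overlapping. TGCGCNC occurs in 15.4% and TGCACNC in 12.6% of 32851 start regions of the same length, either in 25.7%, and at least 3 matches in 1.97%. A match describes the letters and is neither a bound site nor a cause of the difference.

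At 3000 UMIs per cell, 23 of 488 dry eye LSC cells (4.71%, 3.01 to 6.99) and 7 of 185 control LSC cells (3.78%, 1.53 to 7.64) held a UMI of Mki67 or Top2a, which dividing cells make. Squam cells, which do not divide, had 1.30% in dry eye and 0.670% in control. The intervals of the LSC shares overlapped widely, and no difference was detectable at this depth. With a UMI of any G2 and M phase gene counted, the shares were 19.7% in dry eye (16.2 to 23.5) and 24.9% in control (18.8 to 31.7) LSC cells, the other direction, with 7.36% in dry eye and 5.16% in control Squam cells. Mki67 had 48 UMIs in dry eye and 26 in control, and none of the 24 genes of G2 and M phase reached the minimum for comparison.

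Growth and arrest genes gave small differences. Among 9 S phase genes, 1 was higher, Mcm3, a subunit of the replicative helicase, at 1.51 (0.923 to 2.60), and 1 lower, Tyms, thymidylate synthase, at 0.582 (0.398 to 0.858). Of 13 G1 cyclin and growth genes 1 was higher, Eif4ebp1, which restrains translation, with 94.6 CPM in dry eye and 55.2 in control, a ratio of 1.71 (1.35 to 2.20). Ccnd1, cyclin D1, stood at 0.767 (0.699 to 0.842) and Ccnd2 at 1.005. Of 9 inhibitors of cyclin-dependent kinases and genes of quiescence none was higher and 2 were lower, Cdkn1a, which encodes p21, with 40.1 CPM in dry eye and 63.9 in control, a ratio of 0.627 (0.486 to 0.814), and Foxo3, a transcription factor of stem cell quiescence, at 0.592 (0.412 to 0.857). Neither passed the bound among cells low in Krt12, with 0.811 for Cdkn1a and 0.685 for Foxo3, or among cells with at least 10 UMIs of Gpha2 per 10000, and with the LSC* cells added the ratio of Cdkn1a turned to 1.98.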

How the data were processed

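The authors deposited a table of whole-number counts, UMIs of 17891 genes in 33885 cells, and a table that gives each cell its library, its class and its embedding axes, which are scores without a unit as the authors computed them. The submitters' processing notes name Cell Ranger 6.0.1, Seurat 4 and mm10, without saying which step used which. The sources used here do not say how cells were filtered, how doublets were treated or what the asterisk in a class name means, and no doublet caller was run. All values were whole and at least 0.

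LSC cells were taken by their class. Their UMIs were summed per library, because cells are not replicates, and divided by the class total to give CPM. The class of each library held 4268817 UMIs in dry eye and 1503145 in control. A ratio is dry eye CPM over control CPM with the exact binomial 95% interval of the UMIs. PCR copies are removed by UMIs, so intervals cover counting error in captured molecules and not the spread between animals. Shares of cells have exact Clopper-Pearson intervals. Shares of cells with a UMI were taken after thinning each cell to 3000 UMIs, leaving out shallower cells. Squam cells were set beside them as a class that should lack Gpha2 and does not divide. Clu and Ly6a were found in many Squam cells, so for these genes Squam is a comparison and not a class that lacks the gene. Named genes were 12 genes from each end of the ratios, ordered by the bound of the interval closer to 1, without predicted, mitochondrial, ribosomal protein and haemoglobin genes, the 2 highest and 2 lowest of each gene list, the markers and a few preset genes, and, against other classes, the 15 with the highest ratio to the next class; further list members past the bound are named where their count is 5 or fewer, after their values were seen. The alternatives tried were other sets of cells, weightings, minimums, scalings and thinnings. The members and all lists were chosen with earlier results of these data known. Coordinates are from GENCODE M21, in which 17599 symbols matched. Some members of the gene lists are not reported here. The script was tested on simulated data. Python 3.11.15, numpy 2.4.6, scipy 1.17.1, pandas 2.3.3 and matplotlib 3.10.9 were used.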

Additional observations from a re-analysis of the deposited data

Results flagged for a closer look

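In 3 named genes the ratio of dry eye to control lay past 1.5-fold in LSC cells and past 1.5-fold the other way in another class of the same libraries in which the gene, too, had at least 100 UMIs and 20 CPM. The differences were not tested, since each group had 1 library. S100a8 had a ratio of 0.268 in LSC cells and 9.53 in TAC2 cells, and the LSC value rests on 4 control cells. Cdkn1a, which encodes the cell cycle inhibitor p21, had 0.627 in LSC cells and 1.503 in Squam cells. Ifi27l2a, an interferon-induced gene, had 0.464 in LSC cells and 1.66 in TAC1* cells. At levels under 20 CPM in the other class, further ratios ran the other way, among them Ifi27l2a at 3.22, Timp3 at 1.96 and Mgst1 at 1.56 in Conj cells, and Wfdc18 at 0.421 in TAC2 cells.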

How the results depend on the processing

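No paired analysis was possible because each group had 1 library, and for the same reason no replicate could be left out. The LSC share was 4.12% in dry eye with the starred LSC* cells added, 4.05% of cells without an asterisk and 9.26% of LSC, TAC1, TAC2 and Basal cells; in control it was 1.28% among cells with at least 2000 UMIs and 3.81% of those 4 classes. The counts of genes at least 1.5-fold higher and lower were 368 and 524 with LSC* cells added, 234 and 462 for means over cells, 176 and 203 with ratios divided by the median ratio, 555 and 648 with free RNA subtracted, 79 and 92 after thinning, 2655 and 2670 with at least 1 UMI, 39 and 105 at 50 CPM, and 25 and 33 at 2-fold. Leaving out each gene's 10 highest cells of either library gave 631 and 118, since 10 of 267 cells is a larger part than 10 of 592. Settings chosen after seeing the data gave 167 lower genes in cells high in Gpha2 and 181 in the centre of the embedding. The share of cells with Mki67 or Top2a was 8.78% in dry eye and 9.74% in control without thinning, 8.66% in dry eye and 11.1% in control at 5000 UMIs, and 19.7% in dry eye and 24.9% in control for any G2 and M phase gene, so its direction changed. With LSC* added, the ratios of S100a8 and Cdkn1a were 17.0 and 1.98. Egr1 had 2.94 with free RNA subtracted. Krt6b had 0.790 in the centre, 0.982 as a mean over cells and 0.954 thinned. Over all 12 other classes, Immune and LSC* included, the LSC level over the next class was 0.246 for Lcn2, 0.251 for Cd63, 0.947 for Car12, 0.847 for Apoe, 0.315 for Sox4 and 0.625 for Rnase4. The causes were not tested. Of the 12 highest genes, 10 stayed past 1.5-fold under every alternative run, and of the 12 lowest, 4; without the 10 highest cells of each gene, Gbp2 and S100a8 had no control UMIs left.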

Other observations

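Smaller differences were found in further genes of LSC cells. Ifitm3, an interferon-induced membrane protein that also marks outer limbal cells of the mouse, had 1294 CPM in dry eye and 942 in control, a ratio of 1.37 (1.30 to 1.46), and was higher in dry eye in all 4 regions of the embedding. The nucleolar genes Npm1 and Ncl had ratios of 1.42 (1.33 to 1.53) and 1.33 (1.21 to 1.46). Tgfbi, a matrix protein of the cornea, had 389 CPM in dry eye and 301 in control, a ratio of 1.29 (1.17 to 1.44). None of these passed 1.5-fold in LSC cells.

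Some of the higher genes ran together more closely across dry eye LSC cells than across control LSC cells, by values with no test. Across 592 dry eye and 267 control cells, Spearman's rho between Clu and Fabp5 was 0.45 in dry eye and -0.24 in control, between Clu and Cstdc5 0.58 in dry eye and 0.20 in control, between Clu and Ly6a 0.48 in dry eye and 0.09 in control, and between Fabp5 and Cstdc5 0.56 in dry eye and 0.08 in control. Control cells held fewer UMIs of these genes, and the part of that in the lower rho was not tested.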
